A study of Homo sapiens with 12 samples.

Results

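RNA levels of 6 chromatin genes were followed in triple-negative breast cancer cells treated with a BET inhibitor, a BAZ2A/B inhibitor or both. The genes were BAZ2A and BAZ2B, whose bromodomains the inhibitor GSK2801 was made against, their relatives BAZ1A and BAZ1B, BRD9, and SMARCA5, the ATPase that BAZ proteins bind. They were chosen by name, as targets of the inhibitor and their relatives, with earlier results of these data known, and they were 6 of the 28512 gene symbols measured. The cells were the established human lines HCC1806, SUM159 and MDAMB231. Each line received JQ1 plus GSK2801, JQ1 alone, GSK2801 alone or the vehicle DMSO for 72 h, with 1 library for each line and treatment and 12 libraries in all. JQ1 was given at 500 nM to HCC1806, 300 nM to SUM159 and 100 nM to MDAMB231, and GSK2801 at 10 µM to all 3 lines. The medium was RPMI with serum for HCC1806, while SUM159 and MDAMB231 were kept in serum-supplemented DMEM/F12 containing hydrocortisone and insulin, so that line, JQ1 dose and, for HCC1806, medium cannot be told apart.

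A bromodomain is a pocket that holds acetylated lysines, mostly on histone tails, and JQ1 fills the pockets of the BET proteins. The BAZ proteins are the non-catalytic subunits of ISWI remodellers, in which the ATPase SMARCA5 slides nucleosomes. BAZ2A with SMARCA5 forms NoRC, which silences ribosomal DNA repeats, BAZ1A with SMARCA5 forms ACF and CHRAC, which space nucleosomes, and BAZ1B with SMARCA5 forms WICH and the larger B-WICH, which act at replication sites and in ribosomal RNA synthesis. BRD9 belongs to another remodeller, the noncanonical BAF complex, and its bromodomain is a weaker target of GSK2801. An inhibitor of a bromodomain acts on the protein, and only RNA was measured here.

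Values are the deposited normalized reads, which share 1 upper quartile over the libraries, and tests used log2(value + 1) in limma with Benjamini-Hochberg adjustment over 14232 genes. With 1 library per line and treatment, the treatment p-values rest on how the 3 lines differ in their change and hold no spread over repeat cultures. Those of contrasts with and without JQ1 may be too small, because the JQ1 libraries of a line share its own response. For GSK2801 contrasts they may be too large, because the estimate of spread, shared by all libraries, also holds line differences in the JQ1 response. Libraries held 24200000 to 46800000 estimated reads, and the 6 genes had 372 to 9333 of these in a library, so that none was near the detection limit. HEXIM1, a gene that BET inhibitors raise, had a log2 difference of 1.23 ± 0.08 (SE, n = 3 lines; adjusted p = 7.0e-04, limma) between JQ1 and DMSO. Of the hormone receptor genes, ESR1 was at most 138 and PGR at most 12.1 normalized reads. The HER2 gene ERBB2 was higher, at 4325 to 6456 in HCC1806, 3084 to 4142 in SUM159 and 1749 to 2335 in MDAMB231. EPCAM lay between 11492 and 15287 in HCC1806, against at most 7.87 in SUM159 and 375 in MDAMB231, whereas VIM was at least 90380 in SUM159 and MDAMB231 and at most 173 in HCC1806. The epithelial genes CDH1 and KRT5 parted the lines as EPCAM did, and the mesenchymal gene ZEB1 as VIM did. The keratin KRT17 did not, at 2.11 to 255 in HCC1806, 46.7 to 88 in SUM159 and 0.667 to 3.77 in MDAMB231. The summed level of 10 blood, endothelial, fat and stromal markers was 20.3 to 63 in HCC1806, 270 to 1950 in SUM159 and 24 to 30 in MDAMB231. This sum was lower with JQ1 than without it in each line. In SUM159 it was 404 with the combination and 270 with JQ1, against 1950 with GSK2801 and 1471 with DMSO, and the endothelial adhesion gene PECAM1 was the highest of the markers in all 4 libraries. It thus moved with JQ1, and its part in the JQ1 responses was not tested.

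On GRCh38, by the GENCODE v29 annotation, BAZ2A lies at chr12:56595596-56636816, BAZ2B at chr2:159318979-159616692, BAZ1A at chr14:34752731-34875647, BAZ1B at chr7:73440398-73522278 and BRD9 at chr5:850291-892824, all on the minus strand. SMARCA5 lies at chr4:143513463-143557486 on the plus strand. All 6 are protein-coding, and each has 1 value per library for the whole gene. The BAZ1B promoter is shown because it alone, of the member promoters found, overlapped no annotated exon. Its upstream 250 bases from RefSeq (GRCh38.p14, chr7:73522294-73522543, minus strand) are given in transcription direction, with a GC box (GGGCGG or CCGCCC) and CCAAT boxes (CCAAT or ATTGG) in capitals.

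BAZ1B: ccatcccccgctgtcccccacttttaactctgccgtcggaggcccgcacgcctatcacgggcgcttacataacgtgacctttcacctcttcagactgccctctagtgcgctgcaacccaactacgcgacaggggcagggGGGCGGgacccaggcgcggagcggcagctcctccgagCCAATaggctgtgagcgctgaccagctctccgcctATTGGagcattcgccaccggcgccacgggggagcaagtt

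The window held 1 GC box and 2 CCAAT boxes, which did not overlap. Over 35116 promoter windows of the same length, searched on both strands, 42.6% held a GC box and 32% a CCAAT box. Its base content was 65.2% G and C with 22 CpG, against medians of 58.0% and 11 over all windows. GC boxes were also found in the windows of BAZ2A, BAZ2B, BRD9 and SMARCA5, and CCAAT boxes in none of these 4. The windows of BAZ2A, BRD9 and SMARCA5 overlap annotated exons of those genes, and that of BAZ2B (chr2:159712443-159712692) lies outside the gene as given above and overlaps an exon of MARCH7. The MYC-type E-box CACGTG, held by 6.34% of windows, was in none of the 5. BAZ1A had no entry in the promoter table used.

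With GSK2801 alone, the RNA of its own targets and of their relatives lay close to the DMSO level in every line. Over the 18 pairs of a gene and a line, the log2 difference between GSK2801 and DMSO ran from -0.09 to 0.18. None of the 6 genes passed the test of GSK2801 against DMSO, where 0% of all genes passed and 161 had an unadjusted p below 0.05. BAZ2A differed by 0.01 ± 0.18 (SE, n = 3 lines), with a 95% interval of -0.37 to 0.43, and BAZ2B by 0.09 ± 0.18, with an interval of -0.32 to 0.51. For BRD9 the interval was the narrowest of the 6, at -0.27 to 0.26. Each interval thus leaves room for changes of the size of its bounds, and adjusted p was 1 for all 6 genes (limma). The width of each comes from 1 estimate of spread over all 12 libraries, which also holds how the lines differ in their JQ1 response. For GSK2801 the intervals may therefore be too wide. Within the lines, BAZ2A differed by 0.07 in HCC1806, -0.08 in SUM159 and 0.06 in MDAMB231. A fit of only the 6 libraries compared also called 0 of all genes.

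With JQ1 alone, BAZ2A, BAZ2B, BAZ1A and SMARCA5 lay above DMSO in HCC1806 and below it in at least 1 other line. BAZ1B and BRD9 lay below DMSO in all 3 lines as deposited, in SUM159 by log2 differences of only -0.087 and -0.095. TMM scaling, tried as an alternative, shifted all SUM159 log2 values by 0.039 under JQ1 and by -0.077 under DMSO. The place of both genes below DMSO in SUM159 thus rests on the scaling. Between JQ1 and DMSO the log2 difference within a line ran from -0.76 to 0.41 over the 18 pairs, with 13 of them below 0. Averaged over the lines, none of the 6 passed the test, while 22.6% of all genes did. The mean differences were 0.04 ± 0.18 for BAZ2A, -0.14 ± 0.18 for BAZ2B, -0.29 ± 0.20 for BAZ1A, -0.26 ± 0.17 for BAZ1B, -0.20 ± 0.12 for BRD9 and -0.06 ± 0.17 for SMARCA5 (SE, n = 3 lines; adjusted p 0.243 to 0.883, limma). Their median was -0.17, beside -0.08 over all tested genes. JQ1 plus GSK2801 against DMSO also gave 0 of 6 calls, where 34.8% of all genes passed, and so did the combination against GSK2801, where 29% passed. For the combination against JQ1, 0% of all genes and none of the 6 passed, and the same was found for the departure from additivity of the inhibitors on the log2 scale. Within a line, the combination minus JQ1 ran from -0.29 to 0.32 over the 18 pairs.

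**Figure D1:**
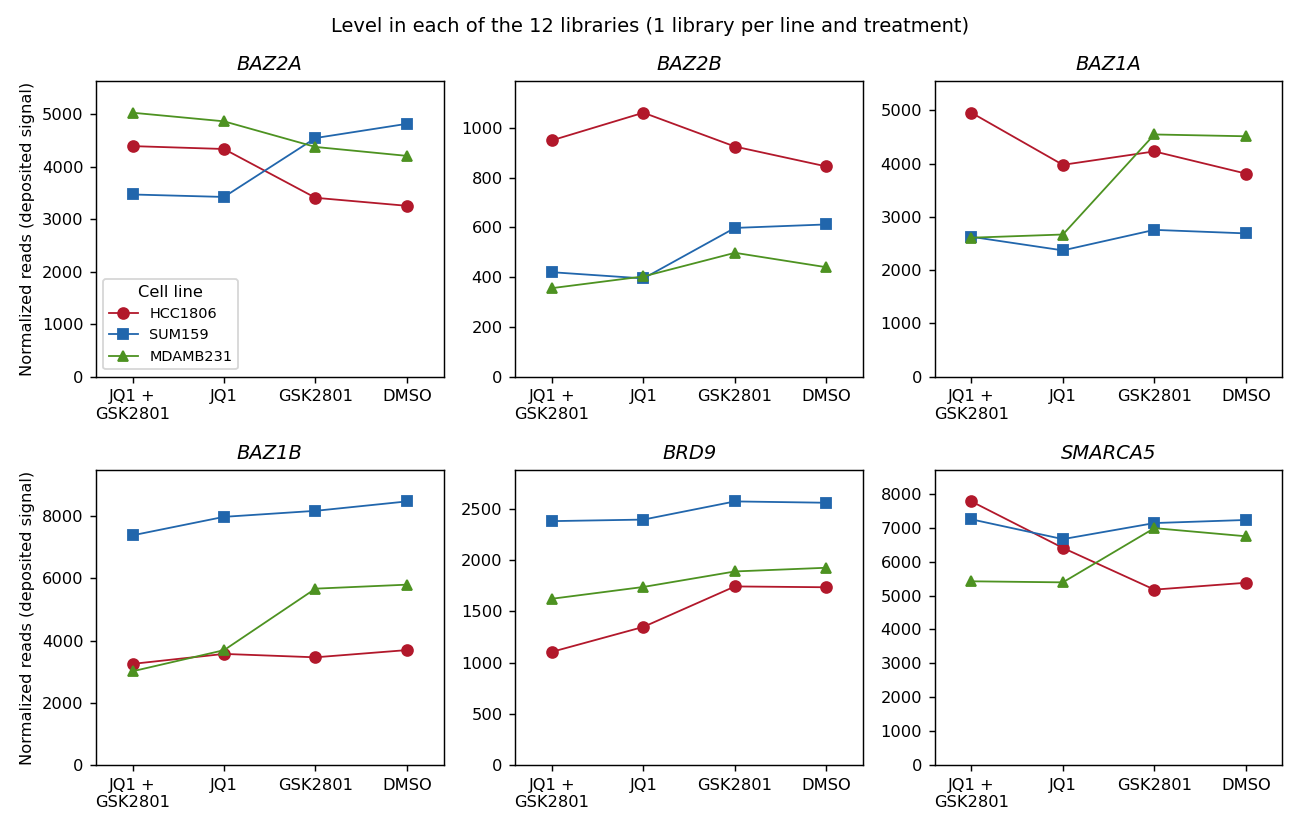
Normalized reads of the 6 genes (y axis, linear from 0) in each of the 12 libraries, by treatment (x axis) and cell line (colour and symbol); lines join the libraries of 1 cell line. GSK2801 and DMSO values lie close together, whereas JQ1 values part from them, for some genes in a direction that differs between lines, as for BAZ2A at 3423 under JQ1 and 4816 under DMSO in SUM159, and at 4336 and 3254 in HCC1806.

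The response to JQ1 was therefore compared between lines. It was taken for each line as the mean of JQ1 minus DMSO and of the combination minus GSK2801, in a model whose p-values rest on how far each line departs from additivity of the inhibitors and not on repeat cultures. Of the 6 genes, 3 passed for HCC1806 minus SUM159, where 22.9% of all genes passed, 3 for HCC1806 minus MDAMB231, where 30.1% did, and 3 for SUM159 minus MDAMB231, where 29.2% did. At least 1 of these comparisons was passed by 5 of the 6 genes and by 49% of all genes. The members' median difference was 0.37 beside 0.10 for all genes in the first comparison, 0.60 beside 0.02 in the second and 0.19 beside -0.10 in the third. With GSK2801 in place of JQ1, none of the 6 passed in any of these comparisons, where 0%, 0% and 0.00703% of all genes did.

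**Figure D2:**
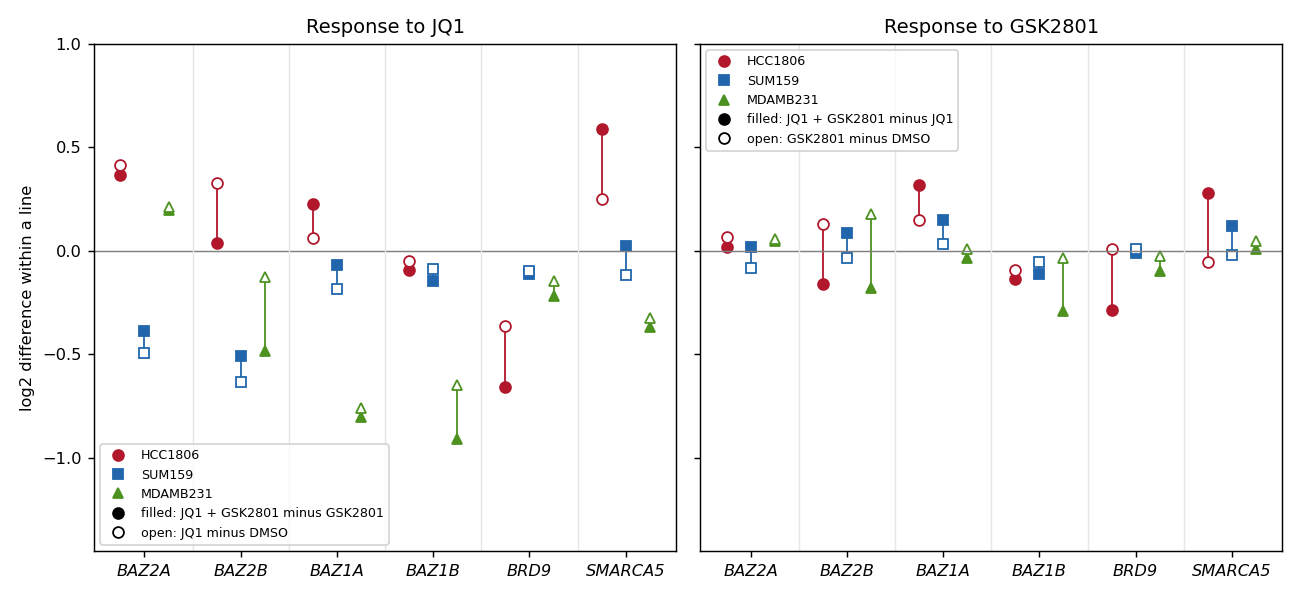
Log2 difference within a line (y axis) for each gene (x axis), for JQ1 on the left and GSK2801 on the right; filled symbols give the difference in the presence of the other inhibitor, open symbols that in its absence. JQ1 differences in its absence span -0.76 to 0.41, and those of GSK2801 -0.09 to 0.18. In its presence they span -0.91 to 0.59 for JQ1 and -0.29 to 0.32 for GSK2801.

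In level, averaged over the treatments, 4 of the 6 genes passed between HCC1806 and SUM159, where 70% of all genes did, 2 between HCC1806 and MDAMB231, where 70.3% did, and 2 between SUM159 and MDAMB231, where 60.4% did. The p-values of these line contrasts measure the spread over treatments. With JQ1 against without it in a single line, 3 were higher and 1 lower without overlap in HCC1806, where 36.4% and 38.9% of all genes were. In SUM159 none was higher and 5 were lower, where 26.1% and 45.3% were, and in MDAMB231 1 was higher and 5 were lower, where 36.1% and 41.4% were. The members' median JQ1 response was 0.16 in HCC1806, -0.12 in SUM159 and -0.32 in MDAMB231. Over all tested genes it was -0.01, -0.13 and -0.03 in the same order, so that the members did not fall below other genes in SUM159. Sorted by GSK2801 instead, only HCC1806 had members without overlap, with BAZ1A higher and BAZ1B lower, where 5.04% and 7.44% of all genes were; in SUM159 10.4% and 6.05% and in MDAMB231 5.99% and 5.77% of all genes were. The HCC1806 shifts were small, with mean GSK2801 responses of 0.23 for BAZ1A and -0.11 for BAZ1B on the log2 scale.

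BAZ2A, the subunit that brings NoRC to ribosomal DNA, moved in opposite directions under JQ1 in HCC1806 and SUM159. In HCC1806 it had 4391 normalized reads with the combination and 4336 with JQ1, against 3407 with GSK2801 and 3254 with DMSO. In SUM159 it had 3470 with the combination and 3423 with JQ1, against 4545 with GSK2801 and 4816 with DMSO. In MDAMB231 it had 5027 with the combination and 4863 with JQ1, against 4375 with GSK2801 and 4205 with DMSO. The JQ1 libraries lay above those without JQ1 in HCC1806 and MDAMB231 and below them in SUM159, without overlap in any line. The JQ1 response was 0.83 ± 0.10 higher on the log2 scale in HCC1806 than in SUM159 (adjusted p = 0.00215, limma), and SUM159 minus MDAMB231 came to -0.65 ± 0.10 (adjusted p = 0.00473, limma). Both calls held when any 1 library was left out, with adjusted p up to 0.0435. HCC1806 and MDAMB231 differed by 0.19 ± 0.10 in their response, with a 95% interval of -0.05 to 0.42. Between lines the level of BAZ2A itself gave no call: its means over the 4 libraries were 3847 in HCC1806, 4064 in SUM159 and 4617 in MDAMB231. BAZ2A shares 601 exon bases with RBMS2 on the opposite strand, and the labels leave open whether reads kept their strand. RBMS2 had mean JQ1 responses of -0.78 in HCC1806, -0.13 in SUM159 and 0.53 in MDAMB231, and BAZ2A had 0.39, -0.44 and 0.21 in the same order of lines. The part of RBMS2 in the BAZ2A values was not tested.

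BAZ2B, the other bromodomain protein that GSK2801 was made against, was the least abundant of the 6 and highest in HCC1806. HCC1806 had 950 normalized reads with the combination, 1061 with JQ1, 925 with GSK2801 and 845 with DMSO. SUM159 had 420, 395, 598 and 612 in the same order, and MDAMB231 had 356, 403, 498 and 440. Every HCC1806 library lay above every library of the other lines. The level in HCC1806 exceeded that in SUM159 by a log2 difference of 0.92 ± 0.16 (adjusted p = 6.4e-04, limma) and that in MDAMB231 by 1.16 ± 0.16 (adjusted p = 1.4e-04, limma). SUM159 and MDAMB231 differed by 0.24, with an interval of -0.12 to 0.60. With JQ1 the level was lower without overlap in SUM159 and MDAMB231 and higher in HCC1806. The JQ1 response was 0.75 ± 0.19 higher in HCC1806 than in SUM159 (adjusted p = 0.0288, limma), but this call was lost when any 1 library of SUM159 or HCC1806 was left out (adjusted p 0.0814 to 0.165). It was also lost without the variance trend.

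BAZ1A, the regulatory subunit of ACF and CHRAC, had lower values with JQ1 than without it in MDAMB231. HCC1806 had 4953 normalized reads with the combination, 3975 with JQ1, 4227 with GSK2801 and 3811 with DMSO. SUM159 had 2625, 2370, 2755 and 2689 in the same order, and MDAMB231 had 2608, 2668, 4545 and 4511. The MDAMB231 libraries with JQ1 lay within the SUM159 range, and those without it above all SUM159 libraries. The JQ1 response in MDAMB231 averaged -0.78 on the log2 scale, against 0.15 in HCC1806 and -0.13 in SUM159. HCC1806 minus MDAMB231 came to 0.92 ± 0.11 (adjusted p = 0.00229, limma), which passed with any 1 library left out. SUM159 minus MDAMB231 came to 0.65 ± 0.11 (adjusted p = 0.00634, limma), which was lost without the GSK2801 library of SUM159 (0.0635) or its combination library (0.0636). In level, HCC1806 exceeded SUM159 by 0.70 ± 0.17 (adjusted p = 0.00593, limma). SUM159 against MDAMB231, at -0.41 ± 0.17, missed the threshold (adjusted p = 0.0703, limma). That difference passed with TMM scaling (adjusted p = 0.0454). Of 12 fits that left out 1 library it passed in 2, without the combination library of MDAMB231 (0.0101) and without that of HCC1806 (0.0496).

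BAZ1B, the WSTF subunit of WICH, was likewise lower with JQ1 in MDAMB231. HCC1806 had 3256 normalized reads with the combination, 3576 with JQ1, 3467 with GSK2801 and 3699 with DMSO. SUM159 had 7379, 7972, 8165 and 8467 in the same order, and MDAMB231 had 3019, 3696, 5669 and 5797. SUM159 was the highest line without overlap, and the MDAMB231 libraries with JQ1 lay in the range of HCC1806 or just below it. The log2 level in HCC1806 was below that in SUM159 by a difference of -1.19 ± 0.15 (adjusted p = 7.3e-05, limma), and SUM159 exceeded MDAMB231 by 0.87 ± 0.15 (adjusted p = 7.5e-04, limma). HCC1806 against MDAMB231, at -0.32 ± 0.15 (adjusted p = 0.0741, limma), passed with quantile normalization (0.0395) and without the combination library of MDAMB231 (0.0114). The JQ1 response averaged -0.07 in HCC1806, -0.12 in SUM159 and -0.78 in MDAMB231. HCC1806 minus MDAMB231 came to 0.71 ± 0.12 (adjusted p = 0.00563, limma) and SUM159 minus MDAMB231 to 0.66 ± 0.12 (adjusted p = 0.00757, limma). The first was lost when any library of HCC1806 was left out (adjusted p 0.0579 to 0.0642) and the second when any of SUM159 was (0.0555 to 0.0636). HCC1806 and SUM159 differed by 0.05 in response, with a 95% interval of -0.23 to 0.32. Under the combination against DMSO, BAZ1B had -0.44 ± 0.17 over the lines, with adjusted p = 0.0715 (limma).

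SMARCA5, the ISWI ATPase, had the narrowest range of the 6, with its highest library at 1.5 times its lowest, and showed opposite responses to JQ1 in HCC1806 and MDAMB231. HCC1806 had 7769 normalized reads with the combination and 6401 with JQ1, against 5173 with GSK2801 and 5375 with DMSO. SUM159 had 7242, 6659, 7132 and 7223 in the same order, and MDAMB231 had 5418, 5387, 6983 and 6743. The libraries with JQ1 were higher without overlap in HCC1806, lower without overlap in MDAMB231, and overlapped those without it in SUM159. The JQ1 response was 0.76 ± 0.13 higher in HCC1806 than in MDAMB231 (adjusted p = 0.00682, limma), and this was lost without the GSK2801 library of HCC1806 (0.0611) or its combination library (0.0609). HCC1806 minus SUM159 came to 0.47 ± 0.13 (adjusted p = 0.044, limma). That call was lost when any of the 12 libraries was left out (0.0598 to 0.208), with TMM scaling (0.101), with a pseudocount of 0.1 (0.0588), with no filter on low values (0.0691) and without the variance trend (0.124). In level the lines gave no call for SMARCA5, and HCC1806 and MDAMB231 differed by 0.00, with an interval of -0.33 to 0.33. HCC1806 against SUM159, at -0.21 ± 0.15, passed without the combination library of HCC1806 (-0.35, adjusted p = 0.0449, limma). The antisense gene SMARCA5-AS1, which shares 630 exon bases with it, was at 12.3 to 49.3 normalized reads. The opposite-strand pseudogene AC139713.1 shares 502 exon bases with SMARCA5 and had no value listed. Among overlaps of other members, AC009506.2 shares 840 exon bases with BAZ2B on its strand, and AL121603.2 951 with BAZ1A on the opposite strand. Neither had a value listed, and the part of these overlaps was not tested.

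BRD9, the bromodomain subunit that defines noncanonical BAF, was lower with JQ1 in the deposited values of all 3 lines. HCC1806 had 1106 normalized reads with the combination and 1349 with JQ1, against 1743 with GSK2801 and 1735 with DMSO. SUM159 had 2379, 2394, 2571 and 2558 in the same order, and MDAMB231 had 1623, 1738, 1889 and 1925. The libraries with JQ1 lay below those without it in every line, a pattern that 19.6% of all tested genes showed. In SUM159 the mean JQ1 response of BRD9, at -0.10, was no lower than the all-gene median of -0.13. TMM scaling shifted all log2 values of that line by 0.039 and 0.027 with JQ1 and by -0.077 and -0.092 without it. The lower BRD9 level in SUM159 thus rests on the scaling as deposited. Over the lines the combination differed from DMSO by -0.33 ± 0.12 on the log2 scale (adjusted p = 0.0533, limma), and from GSK2801 by -0.33 ± 0.12 (adjusted p = 0.0628, limma). Without the combination library of SUM159 these came to -0.43 (adjusted p = 0.037, limma) and -0.42 (adjusted p = 0.0449, limma). The first also passed when only genes with a mean of at least 100 were tested (adjusted p = 0.0487). Over the 15 fits that left out 1 line or library, each difference passed in 1, with adjusted p (limma) up to 0.195 and 0.237. The JQ1 response averaged -0.51 in HCC1806, -0.10 in SUM159 and -0.18 in MDAMB231. HCC1806 minus SUM159, at -0.41 ± 0.13 (adjusted p = 0.0599, limma), passed with TMM scaling (-0.50, 0.0276) and quantile normalization (-0.43, 0.0454). It passed in 0 of the 12 fits that left out 1 library. The level of BRD9 differed in all 3 pairs of lines, as did that of 30.2% of all tested genes. HCC1806 was below SUM159 by -0.76 ± 0.10 (adjusted p = 1.2e-04, limma) and below MDAMB231 by -0.30 ± 0.10 (adjusted p = 0.0258, limma), and SUM159 was above MDAMB231 by 0.47 ± 0.10 (adjusted p = 0.00319, limma). The call between HCC1806 and MDAMB231 was lost without the JQ1 or combination library of HCC1806 (0.0742 and 0.0802) or of MDAMB231 (0.0694 and 0.0654). BRD9 shares 182 exon bases with TRIP13 on the opposite strand, whose mean JQ1 responses were -0.96 in HCC1806, -0.21 in SUM159 and -1.79 in MDAMB231. It also shares 222 exon bases with ZDHHC11 on its own strand, which was at 1.06 to 111 normalized reads. The part of either gene in the BRD9 values was not tested.

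Levels can be compared between the genes only per length. Per kilobase of exon, taken as the union over all transcripts, the median over the 12 libraries was 799 normalized reads for SMARCA5, 664 for BAZ1B, 426 for BAZ1A, 399 for BAZ2A, 190 for BRD9 and 26.9 for BAZ2B. Neighbours in that order overlapped over the libraries from SMARCA5 down to BAZ2A, whereas BRD9, at 116 to 269, lay below all BAZ2A values, which began at 298. BAZ2B, at 17.5 to 52.1, lay below all other members. The order of the medians was the same with the longest transcript in place of the union, but BRD9, at 227 to 529, then overlapped BAZ2A, at 368 to 569. BAZ2B then had a median of 66.2 and BRD9 of 373, since their longest transcripts measure 8.29 and 4.87 kb, against 20.37 and 9.57 kb for the union.

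**Figure D3:**
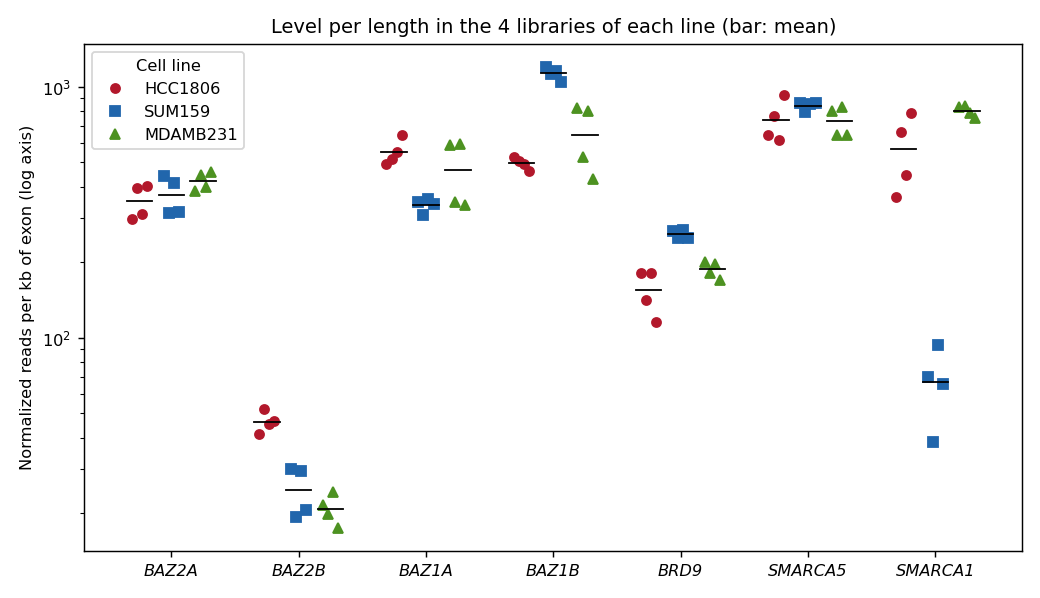
Normalized reads per kb of exon (y axis, log scale) of the 6 genes and of SMARCA1 in the 4 libraries of each line (points), with the mean of the line (bar). SMARCA5 lies within 617 to 927 in all lines, while SMARCA1 reaches 38.5 in SUM159.

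The balance between paralogs differed between lines. BAZ1B per kb was 0.717 to 1.06 times BAZ1A in HCC1806, 3.07 to 3.67 times in SUM159 and 1.26 to 1.51 times in MDAMB231. BAZ2A was 6.87 to 8.62 times BAZ2B in HCC1806, 14.2 to 16.2 times in SUM159 and 16.4 to 26.4 times in MDAMB231. With the longest transcripts these became 3.46 to 4.34 times, 7.13 to 8.14 times and 8.25 to 13.3 times, so that the order of the lines was the same but the size of the ratio rests on the length used. SMARCA1, the other ISWI ATPase, was close to SMARCA5 in MDAMB231, where the ratio of SMARCA5 to SMARCA1 was 0.765 to 1.06, and in HCC1806, at 1.15 to 1.76. In SUM159 that ratio was 9.08 to 20.6, as SMARCA1 had 168 to 409 normalized reads there, against 1587 to 3448 in HCC1806 and 3284 to 3662 in MDAMB231. SMARCA1 was 3.08 ± 0.29 higher on the log2 scale in HCC1806 than in SUM159 (adjusted p = 1.3e-05, limma). Its JQ1 response averaged 0.85 in HCC1806, -0.69 in SUM159 and -0.03 in MDAMB231. HCC1806 minus SUM159 came to 1.54 ± 0.14 (adjusted p = 0.00107, limma) and HCC1806 minus MDAMB231 to 0.88 ± 0.14 (adjusted p = 0.00529, limma), of which the second was lost when any library of HCC1806 was left out (0.0578 to 0.0655).

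The genes that work with these 6 were examined as lists. Of 7 tested ISWI partners, 0 rose and 2 fell with JQ1 against DMSO, where 9.52% and 13.1% of all genes rose and fell. The 2 were RBBP4, a histone chaperone (-0.38 ± 0.09, adjusted p = 0.0157, limma), and CHRAC1, a histone-fold subunit of CHRAC (-0.36 ± 0.09, adjusted p = 0.0219, limma). The list's median was -0.06, against -0.08 for all genes. CECR2, the 8th gene listed, was under the minimum level and not tested. Of 8 partners of BAZ2A at ribosomal DNA, 1 fell, the terminator-binding factor TTF1 (-0.40 ± 0.12, adjusted p = 0.0491, limma), with a list median of -0.04. Of 6 partners of BAZ1B in B-WICH, 2 fell, the RNA helicase DDX21 (-0.87 ± 0.16, adjusted p = 0.00694, limma) and the nucleolar protein MYBBP1A (-0.73 ± 0.17, adjusted p = 0.0158, limma), with a list median of -0.15. Of 13 other subunits of noncanonical BAF, 1 fell, BCL7A (-0.67 ± 0.20, adjusted p = 0.0386, limma), with a list median of 0.03. Of 14 other BAF and PBAF subunits, the PBAF subunit PBRM1 rose (0.52 ± 0.10, adjusted p = 0.00928, limma) and ARID2 fell (-0.49 ± 0.15, adjusted p = 0.049, limma), with a list median of -0.16. All 8 of these calls were lost when the fit held only the 6 libraries compared, which called 755 genes in place of 3223, and each was lost on leaving out at least 1 of the lines. The least stable were ARID2, TTF1 and BCL7A, lost in 9, 8 and 7 of 11 alternatives, against 2 to 4 for the others. Each of these was also lost with TMM and with quantile scaling. With GSK2801 against DMSO, no gene of any list passed.

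With both inhibitors against DMSO, where 15% of all genes rose and 19.8% fell, all 5 list medians lay below 0. The all-gene median was -0.09. Both inhibitors against JQ1 alone gave no call in any list. Noncanonical BAF had 0 rises and 3 falls, with a median of -0.31, and the falls were in BICRAL (-0.58 ± 0.15, adjusted p = 0.0188, limma), BCL7A and ACTL6A. The other BAF and PBAF subunits had 1 rise, SMARCD3, and 6 falls, with a median of -0.31, led by ARID2 (-0.84 ± 0.15, adjusted p = 0.00377, limma) and BRD7 (-0.43 ± 0.09, adjusted p = 0.00512, limma). ISWI partners had 0 rises and 2 falls, again RBBP4 (-0.62 ± 0.09, adjusted p = 0.00103, limma) and CHRAC1 (-0.66 ± 0.09, adjusted p = 0.00105, limma), with a median of -0.22. The BAZ2A partners had 0 rises and 1 fall, again TTF1 (-0.43 ± 0.12, adjusted p = 0.0264, limma), with a median of -0.14. In B-WICH, ERCC6, the CSB repair ATPase, rose (0.70 ± 0.16, adjusted p = 0.0105, limma), DDX21 and MYBBP1A fell, and the median was -0.30. All of these calls were lost in the fit of the 6 libraries compared, which called 1012 genes in place of 4959. The least stable were ACTL6A and MYBBP1A, lost in 7 and 6 of 11 alternatives, among them TMM scaling.

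Between lines, the JQ1 responses of several BAZ2A partners differed between MDAMB231 and the other lines. In HCC1806 minus MDAMB231, 5 of the 8 were higher and 0 lower, where 15.3% and 14.8% of all genes were, with a list median of 0.78 against 0.02 for all genes. In SUM159 minus MDAMB231, 5 were higher and 1 lower, where 11.4% and 17.9% were, with a median of 0.56 against -0.10. In HCC1806 minus SUM159 none passed in either direction, where 14.7% and 8.28% did. The maintenance DNA methyltransferase DNMT1 had mean JQ1 responses of 0.33 in HCC1806, -0.03 in SUM159 and -0.85 in MDAMB231. The de novo methyltransferase DNMT3B had 0.26, 0.32 and -1.29 in the same order, and the deacetylase SIRT1 0.97, 1.03 and -0.20. HCC1806 minus MDAMB231 was 1.19 ± 0.16 for DNMT1 (adjusted p = 0.00295, limma), 1.56 ± 0.23 for DNMT3B (adjusted p = 0.00382, limma) and 1.17 ± 0.17 for SIRT1 (adjusted p = 0.00356, limma). PARP1 and DHX9 also passed in both comparisons with MDAMB231, and the acetyltransferase KAT8 was lower in SUM159 minus MDAMB231 (-0.66 ± 0.17, adjusted p = 0.0232, limma). With 1 library left out, the 5 higher became 0 to 5 in HCC1806 minus MDAMB231 and 1 to 4 in SUM159 minus MDAMB231. The calls of DNMT1, DNMT3B and SIRT1 against MDAMB231 were lost without the GSK2801 library of HCC1806 (adjusted p = 0.0609, 0.0586 and 0.0527, limma) or its combination library (0.0607, 0.059 and 0.0535), and that of DNMT3B also without its DMSO (0.0562) or JQ1 library (0.0561). The other lists had between 1 and 4 genes higher and 0 or 1 lower in HCC1806 minus MDAMB231, and between 1 and 3 higher and 1 or 2 lower in SUM159 minus MDAMB231. Of these, B-WICH partners had 3 of 6 higher and 1 lower in SUM159 minus MDAMB231, with a median of 0.40 against -0.10 for all genes, and with 1 library left out the 3 became 0 to 3.

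**Figure D4:**
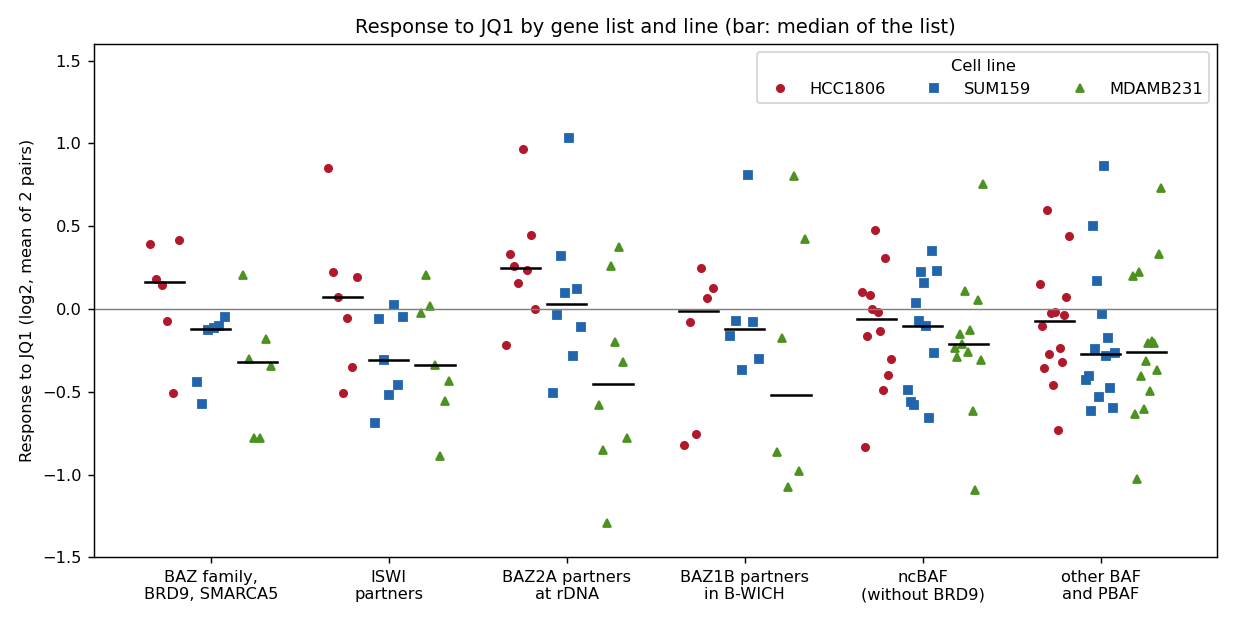
Mean response to JQ1 (y axis, log2) of each tested gene of the 6 lists (x axis) in each line (colour and symbol), with the median of the list as a bar. BAZ2A partners at ribosomal DNA have a median of 0.25 in HCC1806, 0.03 in SUM159 and -0.45 in MDAMB231. SMARCA2, which has libraries listed at 0 in every line, is counted in the bars but drawn as a point in no line. Its SUM159 value of -3.73 would lie off the axis.

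The genes most like each member were found by Pearson's r over the 12 libraries, after the mean of each line was taken off, among 14172 genes. These libraries share line means and treatments, so that r is a description. BAZ1B was nearest to USP1 (0.995), USP13 (0.991) and HOXC10 (0.990), and BAZ1A to SEC23B (0.982), RINT1 (0.978) and ATR (0.977). SMARCA5 was nearest to POLR2B (0.992), SPTY2D1 (0.973) and SNHG14 (0.949). BAZ2A was nearest to HPS3 (0.970), PLCXD1 (0.958) and MPP7 (0.956), and BAZ2B to DNHD1 (0.961), ZFC3H1 (0.959) and LINC00624 (0.954). BRD9 was nearest to ITGBL1 (0.983), CACNG8 (0.980) and HYI (0.980). Among the members, r was 0.82 for BAZ1A with BAZ1B, 0.77 for BAZ1A with SMARCA5 and 0.59 for BAZ2A with BAZ2B, and lowest for BRD9 with SMARCA5, at -0.54.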

How the data were processed

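Each deposited file gave 1 value per gene symbol, taken here as signal: read estimates that the authors had scaled to an upper quartile of 1663.93 in every library. Between 67.2% and 69.3% of values were whole multiples of 1 read (tolerance 0.02), too few for count models. Per the submitters' processing notes, STAR 2.4, Salmon 0.60 and hg38 were used; the scaling step is not given in the sources used here. The labels name KAPA Stranded mRNAseq and Illumina TruSeq kits, so strand is uncertain. Of 28539 entries, 27 date-like symbols were left out, and 14232 of 28512 genes had a mean of at least 10. limma 3.58.1 (R 4.3.3, variance trend, Benjamini-Hochberg, threshold 0.05) was run on log2(value + 1), blocked by cell line, with treatment as the other factor (6 residual degrees of freedom), and, for line responses, with JQ1 and GSK2801 effects per line (3 residual degrees of freedom). Replicate numbers pair libraries by cell line: libraries of 1 line correlated at 0.935 to 0.993, those of different lines at 0.685 to 0.810. Differences on this scale understate changes of low genes. Named were the 6 members, called list genes (at most 4 per list and direction, by p) and the 3 genes nearest each member. The members and lists were chosen with earlier results of these data known, so the report's tests of them are not independent of those results. Alternatives tried were pseudocounts of 0.1 and 10, no filter and a minimum mean of 100, TMM and quantile scaling, no trend, no block, only the libraries compared, and leaving out each line or library. Gene lengths and positions came from GENCODE v29, and promoters, matched by symbol for 5 of the 6 members, from RefSeq.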

Additional observations from a re-analysis of the deposited data

Results flagged for a closer look

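Responses to JQ1 that differed between lines, by a test of the difference itself, were seen for 5 of the 6 genes in at least 1 of 3 comparisons, as for 49% of all tested genes. On the log2 scale, BAZ2A differed by 0.83 for HCC1806 minus SUM159 and by -0.65 for SUM159 minus MDAMB231, and BAZ2B by 0.75 for HCC1806 minus SUM159. BAZ1A differed by 0.92 for HCC1806 minus MDAMB231 and by 0.65 for SUM159 minus MDAMB231. BAZ1B differed by 0.71 for HCC1806 minus MDAMB231 and by 0.66 for SUM159 minus MDAMB231. SMARCA5 differed by 0.47 for HCC1806 minus SUM159 and by 0.76 for HCC1806 minus MDAMB231. The BAZ2B call was lost without any 1 library of HCC1806 or SUM159, and the SMARCA5 call between HCC1806 and SUM159 without any of the 12. Both were also lost without the variance trend. BRD9, which was not called, passed for HCC1806 minus SUM159 with TMM (-0.50) or quantile scaling (-0.43), but in 0 of the 12 fits that left out 1 library. JQ1 dose differed between the lines, and its part cannot be told apart from that of the line.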

How the results depend on the processing

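With no replicate block, as with the block of the cell line, 0 of the 6 genes passed in each treatment comparison; the pairing changed no call. The count of the 6 called moved by over 1.5 times under these settings. In the combination against DMSO 1 passed with a minimum mean of 100, and in the JQ1 response of HCC1806 minus SUM159 1 passed with no variance trend, in place of 3. Smaller moves in that response were to 2 with a pseudocount of 0.1 or no filter and to 4 with quantile scaling, while with TMM it stayed at 3, with BRD9 in place of SMARCA5. In level, 3 in place of 2 passed between HCC1806 and MDAMB231 with quantile scaling and between SUM159 and MDAMB231 with TMM. Leaving out 1 line or library gave 0 to 1 for the combination against DMSO and 0 to 1 against GSK2801, 4 to 5 between HCC1806 and SUM159, 1 to 2 between HCC1806 and MDAMB231, 2 to 3 between SUM159 and MDAMB231, and, for the JQ1 response, 1 to 2 in HCC1806 minus SUM159, 1 to 3 in HCC1806 minus MDAMB231 and 1 to 3 in SUM159 minus MDAMB231. Leaving out a library also takes 1 residual degree of freedom, and the cause of the other moves was not tested. Signs turned in 61 fits of single genes, none of which passed before or after; the largest reported value among them was 0.214 in size. With scaling changed, these were BAZ1B in the JQ1 response of HCC1806 minus SUM159 (-0.050, TMM), BAZ2A with GSK2801 against DMSO (-0.004, quantile) and SMARCA5 between HCC1806 and MDAMB231 (-0.041 with TMM, -0.171 with quantile). The others turned when 1 line or library was left out, and over these fits the log2 differences had the following ranges. In GSK2801 against DMSO the ranges were BAZ1A -0.096 to 0.259, BAZ1B -0.221 to 0.084, BAZ2A -0.118 to 0.210, BAZ2B -0.060 to 0.246, BRD9 -0.089 to 0.073 and SMARCA5 -0.145 to 0.145. In the combination against DMSO they were BAZ1A -0.413 to 0.172, BAZ2A -0.108 to 0.345 and SMARCA5 -0.156 to 0.268. In the combination against GSK2801 they were BAZ1A -0.436 to 0.079, BAZ2A -0.095 to 0.283 and SMARCA5 -0.172 to 0.304. In HCC1806 against SUM159 BAZ2A had -0.200 to 0.072. In JQ1 against DMSO they were BAZ2A -0.141 to 0.312, BAZ2B -0.379 to 0.101 and SMARCA5 -0.221 to 0.067. In HCC1806 against MDAMB231 SMARCA5 had -0.136 to 0.117. Quantile scaling moved the median of all genes to -0.12, in place of -0.01, between HCC1806 and SUM159, and to -0.10, in place of 0.04, between HCC1806 and MDAMB231. In the JQ1 response it moved to -0.02, in place of 0.10, for HCC1806 minus SUM159 and to 0.04, in place of -0.10, for SUM159 minus MDAMB231. Precision is limited by 1 library per line and treatment; fits that leave out a library assume that the others vary alike.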
